A study of Mus musculus with 12 samples.

Results

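The clustered histone genes encode the linker histone H1 and the core histones H2A, H2B, H3 and H4 and lie side by side in a few gene clusters. They were picked by name and annotation, as the protein-coding genes whose symbol begins with Hist, a cluster number and h, and they comprised 67 of the 54532 genes counted. This choice was made with earlier results of these data known. A further 3 genes with such symbols are annotated as pseudogenes and were left out. RNA-Seq was performed on pieces of colon from wild-type (WT) male C57BL/6J mice, 5 weeks old, in 4 groups of 3 libraries. The control group was untreated, and the model group was given dextran sodium sulfate (DSS), which damages the lining of the colon and causes acute colitis. The Rhy group received DSS and rhynchophylline (Rhy), a plant alkaloid, and the DXM group received DSS and the glucocorticoid dexamethasone (DXM, 4 mg/kg). Rhy and DXM were therefore each given on top of DSS, and no group received either agent without it. The study used several Rhy doses, and the labels do not name that of the sequenced mice. The labels also do not say more of the replicates than that they are separate samples, so the p-values measure the spread between these samples.

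Clustered histone genes supply the bulk of the histones that wrap newly copied DNA, and their mRNAs are made mainly in S phase. These mRNAs usually carry no poly(A) tail. They end just after a conserved stem-loop that is bound by the stem-loop binding protein Slbp. Some clustered genes can also give polyadenylated mRNAs that run on past the stem-loop, and such mRNAs are known from cells that no longer divide. The colon renews its epithelium from dividing crypt cells and also holds many resting cells. The sources used here name an mRNA library and do not say how mRNA was selected.

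Total counts were 14346478 to 17749716 per library, and the clustered histone genes took 0.0366% to 0.0625% of them. Mitochondrially encoded genes took 6.33% to 25.7%. Their share was 21.0, 17.0 and 6.33% in the control and 13.4, 14.0 and 11.1% in the model libraries. It was 23.8, 15.2 and 8.9% in the Rhy and 25.7, 7.88 and 7.48% in the DXM libraries. Among the 66 pairs of libraries, model 1 and model 2 were by far the most alike. The variance between them beyond counting noise (common dispersion) was 0.00201, against 0.0606 to 0.353 for the other 65 pairs. Their counts had a chi-square of 2.81 per degree of freedom over genes, above counting noise, but the noise of separate library preparations from the same RNA can exceed counting noise too. These libraries may therefore be technical replicates of a single mouse, and whether they are cannot be told from the sources used here. They were kept as the separate samples that the labels give, so every model SD, SE and p rests on n = 3 and is too small if they are not. Results that move when they are summed are given both ways. The 11 colon epithelial markers, Epcam and Cdh1 among them, were all detected, with a summed level of 11300 to 36200 CPM (counts scaled to library size by the TMM method).

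The stem-loops are shown because they mark where a histone transcript usually ends. A search of the GENCODE M21 transcripts (GRCm38) for the histone stem-loop, 6-base arms around a 4-base loop, found it in 44 of the 67 genes. It had 6 forms, and the most frequent, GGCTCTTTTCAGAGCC, stood in 26 genes. The following 28 bases are from 6 of the 10 most abundant members, printed 5′ to 3′ on the sense strand with the stem-loop in capitals.
Hist1h1c: caaaaGGCTCTTTTCAGAGCCaccactc
Hist1h2be: ccaaaGGCTCTTTTCAGAGCCacccaac
Hist1h4i: ttaaaGGCCCTTTTTAGGGCCaccacaa
Hist3h2a: ccaaaGGCTCTTTTCAGAGCCacccaca
Hist1h4h: ccaaaGGCCCTTTTCAGGGCCgcccaca
Hist1h4n: ctaaaGGCCCTTTTCAGGGCCatccaat
The annotated transcripts of the first 4 run on past this stem-loop, by 840 bases in Hist1h1c, 1861 in Hist1h2be, 330 in Hist1h4i and 1643 in Hist3h2a. Those of the last 2 end soon after it, 46 bases on in Hist1h4h and 31 in Hist1h4n. Hist1h1d, also among the 10 most abundant members, has a stem-loop that is not printed, and its annotated transcript runs on by 4884 bases. The annotated transcripts of Hist1h2bc, Hist2h2be and Hist1h2bq hold no match. Hist1h2bc is instead annotated as a spliced transcript of 2 exons and 1156 bases, one of only 5 members with more than 1 exon.

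The members with annotated read-through were the ones most often above the filter on low counts. Of the 22 genes whose transcript runs at least 100 bases past the stem-loop, 17 passed the filter, and their median level per length was 0.941 FPKM (fragments scaled to gene length and library size, the mean over 12 libraries). Of the 22 whose transcript ends within 100 bases, 6 passed, with a median of 0.316 FPKM. The remaining 23 had no match in the annotated transcript, and 5 of them passed, with a median of 0.329 FPKM. Many of these 23 annotated transcripts are short, with 312 bases in Hist1h4k and 381 in Hist1h2bl, and may stop before a stem-loop. No match therefore does not show that the gene lacks a stem-loop. In that last class, 3 of the 4 genes with a transcript of at least 1000 bases passed, against 2 of the 19 shorter ones. Longer transcripts collect more counts at the same level, so the counts of genes passed and the levels per length are given side by side, and the part of length in the first was not tested. Shared sequence differed between the classes too. In the class that runs on, only Hist2h3c2 (61.6%) and Hist2h3c1 (100%) had at least 50% of their 100-base windows also in another gene. Many genes of the other classes did, such as Hist1h4n (80.7%) and Hist1h3h (92.0%). The part of shared sequence in the counts of genes passed or in the levels was not tested.

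**Figure D1:**
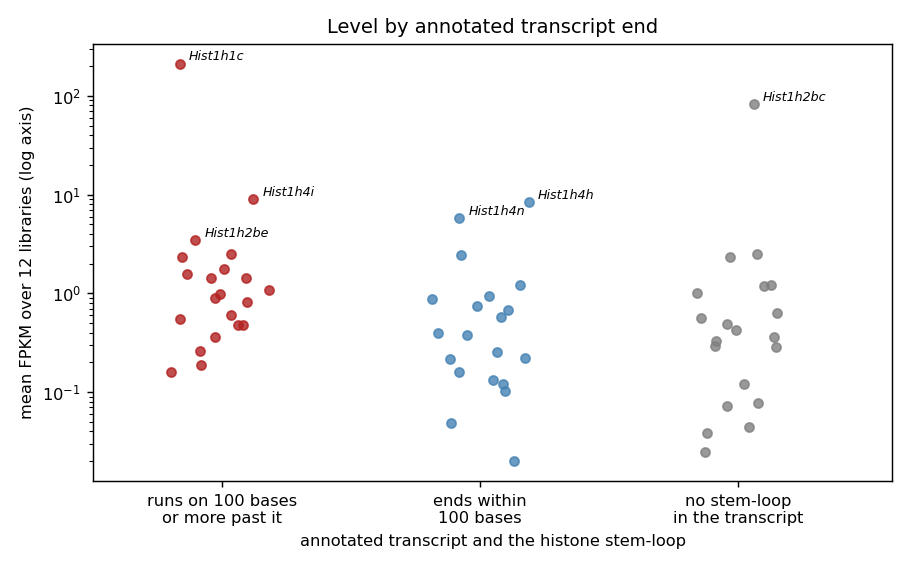
Mean level of each clustered histone gene over the 12 libraries (FPKM, log axis) by where its annotated transcript ends relative to the histone stem-loop. Each point is a gene, genes over 3 FPKM are named, and the 6 genes with no count are not drawn. Hist1h1c (211 FPKM) stands in the class that runs on and Hist1h2bc (82.4 FPKM) in the class with no match.

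Most clustered histone reads in the colon came from 2 genes. Hist1h1c, which encodes a linker histone of the H1 family, and Hist1h2bc, which encodes a core histone H2B, together made up 75.1% to 89.9% of all clustered histone counts in a library. Only 3 members had a mean of at least 10 CPM, 21 had at least 1 CPM and 46 less. In all, 28 members passed the filter of edgeR and 39 did not. Among those 39, the highest mean was 0.491 CPM and the highest single count was 20. There were 6 members with no count in any library and 7 with 1 to 11 counts over all 12.

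Sequence copies limit what can be said of several members. In 28 members, at least 50% of the 100-base windows of the annotated transcripts also occur in another gene, and how reads that fit several places were counted is not given in the sources used here. The 5 undetected genes of the Hist2 cluster (Hist2h2aa1, Hist2h2aa2, Hist2h3b, Hist2h3c1 and Hist2h2bb) had all their windows shared, and they were the only members of which that was true. Whether their zeros come from the level of their mRNA or from the handling of shared reads cannot be told apart. The sixth undetected gene, Hist1h2aa, shares 10.3%. Among the members described below, the shared part was 94.8% in Hist1h2bq, 92.7% in Hist1h2ao, 89.5% in Hist1h2ah, 80.7% in Hist1h4n, 76.2% in Hist1h2ag, 70.8% in Hist1h2bk and 61.6% in Hist2h3c2, and their values are uncertain for that reason. Another annotated gene overlaps 24 members, every H2A gene among them, and how reads in such overlaps were counted is not given either. Hist1h2be overlaps Hist1h1e on the same strand, and Hist3h2a overlaps Trim17 on the same strand, which leaves their counts open to reads of the neighbour. None of the windows of Hist2h2be or Hist1h4d is shared, and 25.4% of those of Hist1h2bc and 5.07% of those of Hist1h1c are.

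The H1 family, 6 genes for the linker histones that sit on DNA between nucleosomes, supplied 67.8% of all clustered histone counts, nearly all from Hist1h1c. Hist1h1c (chr13:23738808-23740367, GRCm38, plus strand, a gene with a single exon) stood at 283, 392 and 295 CPM in the control, 386, 388 and 272 in the model, 502, 462 and 185 in the Rhy and 362, 187 and 293 in the DXM libraries. All 4 groups overlapped, and its level per length, 211 FPKM on average, was the highest of the members. Hist1h1d, the next H1 gene, stood at 6.36, 2.57 and 2.09 CPM in the control, 5.02, 5.04 and 1.01 in the model, 2.06, 5.62 and 4.36 in the Rhy and 3.91, 3.66 and 7.90 in the DXM libraries. The spread within each group of Hist1h1d was as wide as the distance between groups.

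The H2B family, 18 genes for a core histone that pairs with H2A, supplied 25.1% of the counts. Hist1h2bc (chr13:23684199-23692908, plus strand) stood at 191, 148 and 79.3 CPM in the control, 67.6, 69.1 and 54.0 in the model, 109, 102 and 69.3 in the Rhy and 105, 78.6 and 81.3 in the DXM libraries. Every model library lay below every library of the other 3 groups, although model 2 (69.1 CPM) was close to Rhy 3 (69.3 CPM). In the control, model and Rhy groups, the level of Hist1h2bc ran in the same order as the mitochondrial share of the counts. In the DXM group, DXM 1 had the highest of both. The part of that share in the level was not tested. Hist1h2be stood at 17.9, 15.4 and 8.18 CPM in the control, 17.5, 18.4 and 10.5 in the model, 23.4, 21.1 and 14.03 in the Rhy and 12.8, 8.87 and 18.03 in the DXM libraries, and its groups overlapped throughout. Hist2h2be, in the cluster on chromosome 3, stood at 5.24, 4.17 and 6.75 CPM in the control, 10.1, 9.34 and 6.43 in the model, 6.51, 3.46 and 5.43 in the Rhy and 7.54, 7.28 and 7.70 in the DXM libraries. Its model libraries 1 and 2 were above every other library, while model 3 was within the range of the control and Rhy libraries. Hist1h2bq stood at 5.32, 4.94 and 2.14 CPM in the control, 1.49, 0.910 and 1.01 in the model, 3.42, 2.68 and 1.64 in the Rhy and 2.26, 2.12 and 1.72 in the DXM libraries. Like Hist1h2bc, it was lower in each model library than in any other. The share of all genes with this pattern was not computed.

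The H4 family, 13 genes for a highly conserved core histone, supplied 4.03% of the counts but included 3 of the 5 highest levels per length. Those were Hist1h4i with 8.98 FPKM, Hist1h4h with 8.34 and Hist1h4n with 5.75, all below Hist1h2bc with 82.4. Their ranges over the 12 libraries, 4.01 to 16.5, 3.001 to 17.4 and 1.41 to 15.2 FPKM, overlapped widely, so the order of these 3 was not beyond their spread. Hist1h4i stood at 12.0, 8.00 and 6.09 CPM in the control, 6.40, 5.22 and 2.98 in the model, 3.42, 7.25 and 8.21 in the Rhy and 6.51, 5.78 and 7.34 in the DXM libraries. Hist1h4h stood at 6.36, 1.39 and 1.76 CPM in the control, 3.58, 2.73 and 2.44 in the model, 3.85, 6.01 and 2.999 in the Rhy and 8.30, 2.41 and 5.88 in the DXM libraries. Hist1h4n stood at 4.79, 1.32 and 0.988 CPM in the control, 2.04, 2.91 and 1.73 in the model, 1.03, 3.46 and 6.56 in the Rhy and 0.617, 2.17 and 2.43 in the DXM libraries. In all 3 of these genes the library control 1 was the highest of its group, and control and model libraries overlapped. Hist1h4c, the H4 gene with the smallest p in any comparison, had 1.27, 0.209 and 0.439 CPM in the control, 0.386, 0.425 and 0.894 in the model, 1.20, 2.09 and 3.79 in the Rhy and 1.23, 1.01 and 1.17 in the DXM libraries. Each Rhy and each DXM library lay above each model library for Hist1h4c.

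The H2A and H3 families had few counts. The 18 H2A genes together supplied 2.0% of the counts and the 12 H3 genes 1.04%. Each of the 18 H2A genes overlaps another annotated gene, mostly on the opposite strand. The part of that in their low counts was not tested. Hist3h2a, the leading H2A gene, stood at 6.44, 3.96 and 2.47 CPM in the control, 5.79, 3.64 and 3.34 in the model, 4.97, 4.96 and 4.30 in the Rhy and 9.33, 6.03 and 9.72 in the DXM libraries, so that each DXM library was above each model library. Hist2h3c2, the leading H3 gene, stood at 1.72, 0.556 and 1.26 CPM in the control, 2.81, 1.70 and 1.25 in the model, 0.171, 1.89 and 1.47 in the Rhy and 2.19, 2.41 and 2.18 in the DXM libraries. For Hist2h3c2, each DXM library lay above each control and each Rhy library, and all other pairs of groups overlapped. Hist1h3d, also an H3 gene, stood at 2.25, 1.74 and 1.04 CPM in the control, 0.331, 0.364 and 0.238 in the model, 0.257, 1.63 and 1.25 in the Rhy and 1.17, 0.964 and 0.962 in the DXM libraries. Its model libraries were below all control and DXM libraries, and Rhy 1 lay among them.

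**Figure D2:**
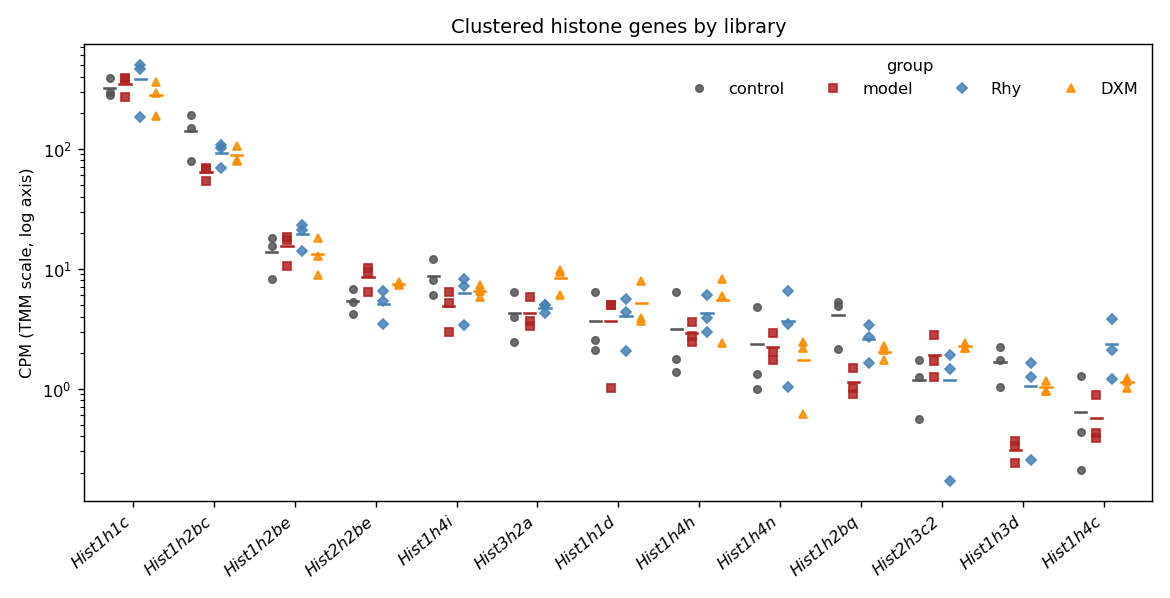
Level of 13 clustered histone genes in each library (CPM on the TMM scale, log axis), with 3 points per group and a line at the group mean. Hist1h1c and Hist1h2bc lie far above the rest, and the model libraries lie below all others for Hist1h2bc and Hist1h2bq. For Hist1h2bc, model 2 (69.1 CPM) is close to Rhy 3 (69.3 CPM).

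Many H2A and H2B genes stand head to head and share the stretch between their starts. In GENCODE M21 there are 12 such divergent pairs with gaps of 175 to 305 bases, holding 24 of the 67 members. The H2B gene had the higher level per length in 10 pairs and the H2A gene in 2. Several of these directions rest on few counts over the 12 libraries. Hist1h2aa had 0 and Hist1h2ba 2, and no gene had over 44 in the 2 pairs where the H2A gene was higher. In the pair Hist1h2ac and Hist1h2bc, 250 bases apart, Hist1h2ac stood at 0.902 FPKM and Hist1h2bc at 82.4, a ratio of 91.4 that had the same direction in 12 of 12 libraries. The next largest ratio was 11.2, for Hist1h2bj (2.44 FPKM) over Hist1h2ag (0.218), also in 12 of 12 libraries. Hist2h2be over Hist2h2ac had a ratio of 3.35, Hist1h2bg over Hist1h2ae 3.66 and Hist1h2bk over Hist1h2ah 4.23, again in 12 of 12 libraries each. The ratios with Hist1h2ag and Hist1h2ah are uncertain, since most windows of these genes are shared with others. Both members stayed under 1 FPKM in 6 pairs, and in Hist1h2ao and Hist1h2bq, which share most of their sequence with other genes, the H2B gene was higher in 6 of 12 libraries. Every H2A gene of these pairs overlaps another annotated gene, mostly on the opposite strand, while the H2B genes do not. Whether strand was used in counting, and how reads in overlaps were treated, is not given in the sources used here. The H2A and H2B transcripts of a pair also differ in annotated length and end. The part of overlap, length or end in the direction and size of these ratios was not tested.

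**Figure D3:**
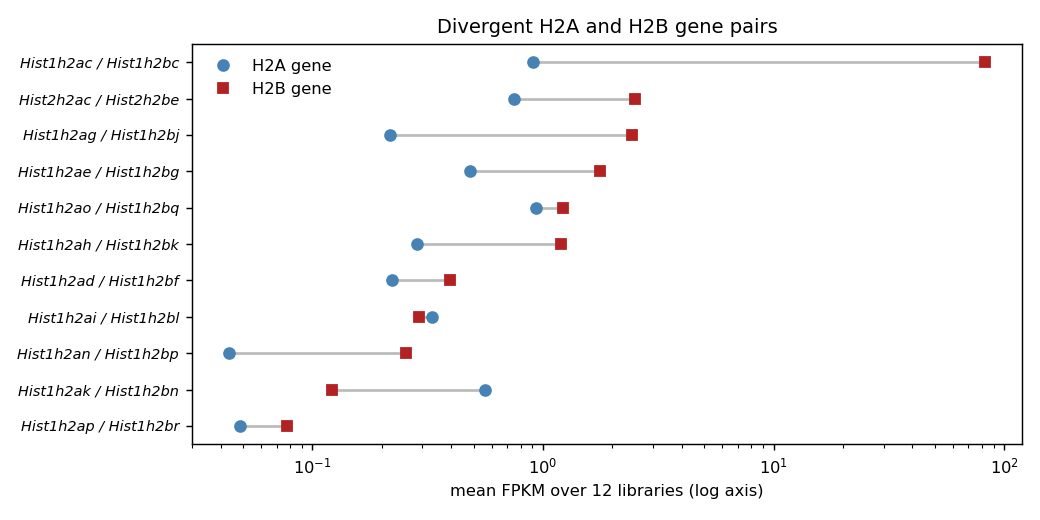
Mean level over the 12 libraries (FPKM, log axis) of the H2A gene (circles) and the H2B gene (squares) in 11 divergent pairs, with a line joining each pair. The pair with an undetected H2A gene, Hist1h2aa, is left out, and Hist1h2bc is 91.4 times as high as Hist1h2ac.

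The region before Hist1h2ac, most of it between Hist1h2ac and Hist1h2bc, is shown because this pair had the widest difference in level. The region before Hist1h1c is shown because that gene led all members. RefSeq (GRCm38.p6) gives chr13:23683960-23684209 as the 250 bases before the start of Hist1h2ac, printed on its strand, the minus strand. It gives chr13:23738557-23738806 as those before the start of Hist1h1c, on the plus strand. In GENCODE M21, Hist1h2ac ends at 23683948 and Hist1h2bc starts at 23684199, so the first window is slightly shifted against the gap between them. The letters searched for on both strands were CCAAT (the CCAAT box), TATAAA (the TATA box), ATTTGCAT (the octamer) and AAACACA (the AC box of H1 genes), and matches are in capitals.
Hist1h2ac: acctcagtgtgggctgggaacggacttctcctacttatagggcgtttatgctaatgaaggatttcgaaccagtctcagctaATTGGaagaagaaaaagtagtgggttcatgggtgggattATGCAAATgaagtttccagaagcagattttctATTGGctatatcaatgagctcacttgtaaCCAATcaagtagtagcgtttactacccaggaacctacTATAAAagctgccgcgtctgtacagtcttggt
Hist1h1c: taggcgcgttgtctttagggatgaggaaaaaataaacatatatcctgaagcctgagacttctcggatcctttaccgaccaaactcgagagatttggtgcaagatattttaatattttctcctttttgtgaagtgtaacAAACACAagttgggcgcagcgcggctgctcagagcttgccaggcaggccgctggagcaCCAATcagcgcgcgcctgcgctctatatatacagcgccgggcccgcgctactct
The first holds CCAAT 3 times, the octamer and the TATA box, and the second holds the AC box and 1 CCAAT. Promoters of 300 bases, 250 before and 50 from the start on, were held for 62 members and 32851 genes or starts in all. CCAAT stood in 53 of the 62 members and in 37.4% of all promoters, and only 3 of the 12 H4 promoters had it, against every promoter of the other 4 families. TATAAA stood in 35 members and 13.6% of all promoters. The octamer stood in 14 members, 7 of them H2A and 7 H2B genes, and in 1.74% of all promoters. The AC box stood in 5 of the 6 H1 promoters, 9 members in all, and 7.18% of all promoters. A match is a description of letters and not a bound site.

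The comparison of the model with the control asks how DSS alters colonic expression. No clustered histone gene passed the test, but Hist1h2bc was 2.19-fold lower in the model than in the control, and Hist1h2bq and Hist1h3d were 3.60-fold and 5.26-fold lower. The latter 2 rest on few counts. Hist1h2bq had 71, 71 and 39 in the control and 27, 15 and 17 in the model libraries. Hist1h3d had 30, 25 and 19 in the control and 6, 6 and 4 in the model libraries. Of the 28 members tested, 11 were higher and 17 lower, with a median log2 fold change of -0.11 beside 0.01 over all 16904 genes tested. That median was 0.40 without control 1 and -0.43 without control 3, so its sign rested on single libraries. In bulk tissue, fewer cells with a transcript and less of it per cell cannot be told apart.

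In edgeR's quasi-likelihood test, 0 members had an adjusted p under 0.05 for the model against the control, and so did 0% of all genes tested. The smallest adjusted p of a member was 0.459. At an unadjusted p under 0.05 there were 5 members, which is 17.9% of those tested, against 9.62% of all genes. Of these 5, 1 was higher (5.11% of all genes were) and 4 were lower (4.51% of all genes). With limma on FPKM, 0 members passed after adjustment and 7 or 6 were under 0.05 before it, with a pseudocount of 1 or 0.1. Without a filter, edgeR had 5 of 61 members under 0.05 before adjustment, 8.2%, against 6.72% of all genes. DESeq2 gave 5 members before adjustment and 1 after it, Hist1h2bc with an adjusted p of 0.043, where 0.672% of the genes with a value were called. DESeq2 set 25 of the 28 members aside without an adjusted p. Over all other alternatives, the adjusted p of Hist1h2bc was 0.146 to 0.887.

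The 4 genes lower in the model at an unadjusted p under 0.05 were Hist1h2bc, Hist1h2bq, Hist1h3d and Hist1h2bk. Hist1h2bc, the H2B gene with the spliced transcript, had 140 ± 56.3 CPM in the control and 63.6 ± 8.30 in the model (mean ± SD, n = 3), a log2 fold change of -1.13 ± 0.30 (SE, edgeR, unadjusted p = 0.00243). Its p stayed under 0.05 in 6 of 6 fits without a library, at most 0.0125, and the exact permutation test gave p = 0.1 (two-sided), the smallest that 3 against 3 libraries allow. Hist1h2bq had 4.13 ± 1.73 CPM in the control and 1.14 ± 0.309 in the model, a log2 fold change of -1.85 ± 0.44 (edgeR, unadjusted p = 0.00129). Hist1h3d had 1.68 ± 0.604 CPM in the control and 0.311 ± 0.0652 in the model, a log2 fold change of -2.39 ± 0.61 (edgeR, unadjusted p = 0.00218). For both, p stayed under 0.05 without any 1 library. Hist1h2bk, an H2B gene named after its values were seen, had a log2 fold change of -1.38 ± 0.62 (unadjusted p = 0.0459), with p at 0.168 without control 2 and 0.118 with model 1 and 2 summed.

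Hist2h2be was the gene higher in the model, with 5.39 ± 1.30 CPM in the control and 8.62 ± 1.93 in the model. Its log2 fold change was 0.68 ± 0.30 (edgeR, unadjusted p = 0.0453), and p was 0.0833 without control 1, 0.148 without control 2, 0.146 without model 1, 0.111 without model 2 and 0.122 with model 1 and 2 summed. Hist1h4i, the leading H4 gene, had a log2 fold change of -0.83 ± 0.39 (unadjusted p = 0.0556). The 2 most abundant members besides Hist1h2bc showed little difference, 0.11 ± 0.36 for Hist1h1c and 0.17 ± 0.36 for Hist1h2be on the log2 scale. With model 1 and 2 summed, 3 members in place of 5 were under 0.05.

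Libraries of the model and the control did not overlap for 6 members, beside 17% of all genes. Hist1h2bc, Hist1h2bq, Hist1h3d, Hist1h2bk and Hist1h2ac were lower in each model library and Hist1h2ao was higher. Hist1h2ac and Hist1h2ao, both H2A genes, were named after their values were seen. Their log2 fold changes were -0.43 ± 0.40 and 1.39 ± 0.71. Several cell type lists differed among these libraries as well. Of the 11 colon epithelial markers, 10 were lower in the model and 5 of these had an unadjusted p under 0.05, with sums of 23800 to 36200 CPM in the control and 17500 to 27300 in the model. Of the 9 macrophage markers, 8 were lower and 3 of these had an unadjusted p under 0.05, while their sum, 202 to 390 against 224 to 231 CPM, overlapped. Of the 13 B cell markers, 9 were higher and 4 lower with 0 under 0.05, although their sum was 362 to 826 CPM in the control and 235 to 475 in the model. All 4 neutrophil markers tested of 7 were lower, 1 of them under 0.05, with sums of 3.29 to 688 and 30.4 to 118 CPM. The T cell (3 higher, 7 lower), smooth muscle (8 higher, 2 lower) and fat cell markers (4 higher, 2 lower) had 0 under 0.05, with sums of 46.8 to 83.2, 3740 to 7340 and 27.9 to 114 CPM in the control and 56.5 to 71.2, 4330 to 5620 and 35.2 to 246 in the model. No marker in these lists was at 0 in all libraries, and their part in the histone values was not tested.

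The Rhy group is compared with the model group to ask what Rhy alters in the DSS-treated colon. No clustered histone gene passed the test, and the smallest unadjusted p was that of Hist1h4c, 4.15-fold higher with Rhy and without overlap of the libraries. Hist1h4c had 7, 7 and 15 counts in the model and 14, 32 and 67 in the Rhy libraries. Hist1h3d was 3.35-fold higher with Rhy 1 among the model libraries, and Hist1h2bq was 2.25-fold higher without overlap. Of the 28 members tested, 21 were higher and 7 lower, with a median log2 fold change of 0.28 beside -0.01 over all genes. Without each library in turn, that median ranged from 0.19 to 0.61, and it was 0.61 without Rhy 1 and 0.52 without model 1. This comparison shares the model libraries with the others, so its values are not independent of theirs.

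Again edgeR gave 0 members, and 0% of all genes, at an adjusted p under 0.05, and each adjusted p of a member was 1. The unadjusted p was under 0.05 for 4 members, 14.3% of those tested, against 3.72% of all genes. Among these, 3 were higher, where 1.74% of all genes were, and 1 was lower, where 1.98% were. DESeq2 and limma gave 4 members each before adjustment and 0 after it, and DESeq2 called 0.0415% of all genes. Without a filter on low counts, 61 members could be tested and 8 of them, 13.1%, were under 0.05, against 3.24% of all genes.

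Hist1h4c, an H4 gene, had 0.568 ± 0.283 CPM in the model and 2.36 ± 1.32 with Rhy (mean ± SD, n = 3), and its log2 fold change was 2.05 ± 0.65 (edgeR, unadjusted p = 0.00855). Its p stayed under 0.05 in 6 of 6 fits without a library, at most 0.0499 without Rhy 3. Hist1h3d had 0.311 ± 0.0652 CPM in the model and 1.05 ± 0.709 with Rhy, and its log2 fold change was 1.74 ± 0.61 (edgeR, unadjusted p = 0.0152), with p at 0.0778 without Rhy 2 and an exact permutation p of 0.3. Hist1h2bq had 1.14 ± 0.309 and 2.58 ± 0.896 CPM, a log2 fold change of 1.17 ± 0.44 (edgeR, unadjusted p = 0.021), with p at 0.072 without model 2, 0.0528 without model 3 and 0.0786 without Rhy 1. Hist2h2be was lower with Rhy, 8.62 ± 1.93 against 5.13 ± 1.55 CPM, a log2 fold change of -0.75 ± 0.30 (edgeR, unadjusted p = 0.0294). That p was 0.104 without model 1, 0.079 without model 2, 0.117 without Rhy 2 and 0.0871 with model 1 and 2 summed.

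Hist1h2bc had 93.1 ± 21.0 CPM in the Rhy group against 63.6 ± 8.30 in the model, a log2 fold change of 0.55 ± 0.29 (edgeR, unadjusted p = 0.0851). Its libraries did not overlap, although Rhy 3 with 69.3 CPM was close to model 2 with 69.1. The same held for Hist1h2bq, Hist1h4c and Hist1h4d, so 4 members were higher in each Rhy library and 0 lower, beside 11.5% of all genes that did not overlap in either direction. Hist1h4d, named after its values were seen, had 0.827, 0.910 and 1.13 CPM in the model and 1.46, 2.94 and 3.51 in the Rhy group. Rhy 1 was low in lymphoid markers, with 48.8 CPM for the 13 B cell markers against 503 to 632 in the other Rhy libraries. Against the model, 12 of the 13 B cell markers and all 10 T cell markers were lower with Rhy, 0 and 2 of them at an unadjusted p under 0.05, with sums of 48.8 to 632 and 23.5 to 53.2 CPM. All 9 macrophage and all 4 tested neutrophil markers were higher, 2 and 0 at that threshold, with sums of 79.7 to 435 and 24.3 to 324 CPM. Of the smooth muscle markers 9 were higher and 1 lower (1 higher under 0.05, sums of 6660 to 7490 CPM), of the colon epithelial markers 9 and 2 (0 under 0.05, 19400 to 26800 CPM) and of the fat cell markers 0 and 6 (0 under 0.05, 40.6 to 115 CPM). Their part in these values was not tested.

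The DXM group, treated with a standard anti-inflammatory steroid, was compared with the same model libraries. No clustered histone gene passed the test. Hist1h3d was 3.25-fold and Hist3h2a 1.96-fold higher with DXM than in the model. Of the 28 members, 17 were higher and 11 lower, with a median log2 fold change of 0.42 beside -0.01 over all genes. Without each library in turn, this median ranged from 0.19 to 0.55, with 0.19 without model 3. It was 0.19 with limma on log2(FPKM + 1).

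Here too edgeR gave 0 members, and 0% of all genes, at an adjusted p under 0.05, with a smallest adjusted p of 0.622 among the members. The unadjusted p was under 0.05 for 2 members, 7.14% of those tested against 7.69% of all genes, so the share was near the background. Both were higher, as were 4.89% of all genes, and 0 were lower, as were 2.8%. DESeq2 gave 2 members before adjustment and 0 after it, while calling 0.32% of all genes, and limma gave 3 and 0. Without model 3 the count was 0, without DXM 1 or DXM 3 it was 1, and with only the groups compared it was 4. Without a filter on low counts it was 5 of 61 members, 8.2%, against 5.86% of all genes.

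Hist1h3d had 1.03 ± 0.117 CPM in the DXM group against 0.311 ± 0.0652 in the model (mean ± SD, n = 3), a log2 fold change of 1.70 ± 0.61 (edgeR, unadjusted p = 0.017), with p at 0.0531 without model 3. Hist3h2a had 8.36 ± 2.03 CPM against 4.26 ± 1.34, a log2 fold change of 0.97 ± 0.37 (edgeR, unadjusted p = 0.0232). For Hist3h2a, p was 0.0747 without model 2, 0.0726 without model 3, 0.0609 without DXM 1 and 0.0721 without DXM 3. Hist1h2bc had 88.2 ± 14.3 CPM with DXM, a log2 fold change of 0.47 ± 0.29 against the model (edgeR, unadjusted p = 0.133).

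Libraries of the DXM and model groups did not overlap for 7 members, beside 22.6% of all genes. Hist1h2bc, Hist3h2a, Hist1h2bq, Hist1h3d, Hist1h4c and Hist1h4d were higher in each DXM library, and Hist1h2bj, an H2B gene named after its values were seen, was lower (0.549, 1.01 and 0.912 CPM against 1.60, 1.03 and 1.25). Hist1h1c, the most abundant member, had a log2 fold change of -0.31 ± 0.36 in this comparison. Against the model, all 10 smooth muscle and all 9 macrophage markers were higher with DXM, 5 of each at an unadjusted p under 0.05, with sums of 5930 to 10500 and 290 to 734 CPM. All 4 tested neutrophil markers were higher, 1 under 0.05, with sums of 199 to 283 CPM. Of the colon epithelial markers 2 were higher and 9 lower (1 higher under 0.05, 11300 to 25300 CPM), of the B cell markers 9 and 4 (369 to 860 CPM), of the T cell markers 5 and 5 (38.1 to 79.5 CPM) and of the fat cell markers 1 and 5 (60.0 to 86.7 CPM), with 0 under 0.05 in the last 3 lists. Their part in the histone values was not tested.

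**Figure D4:**
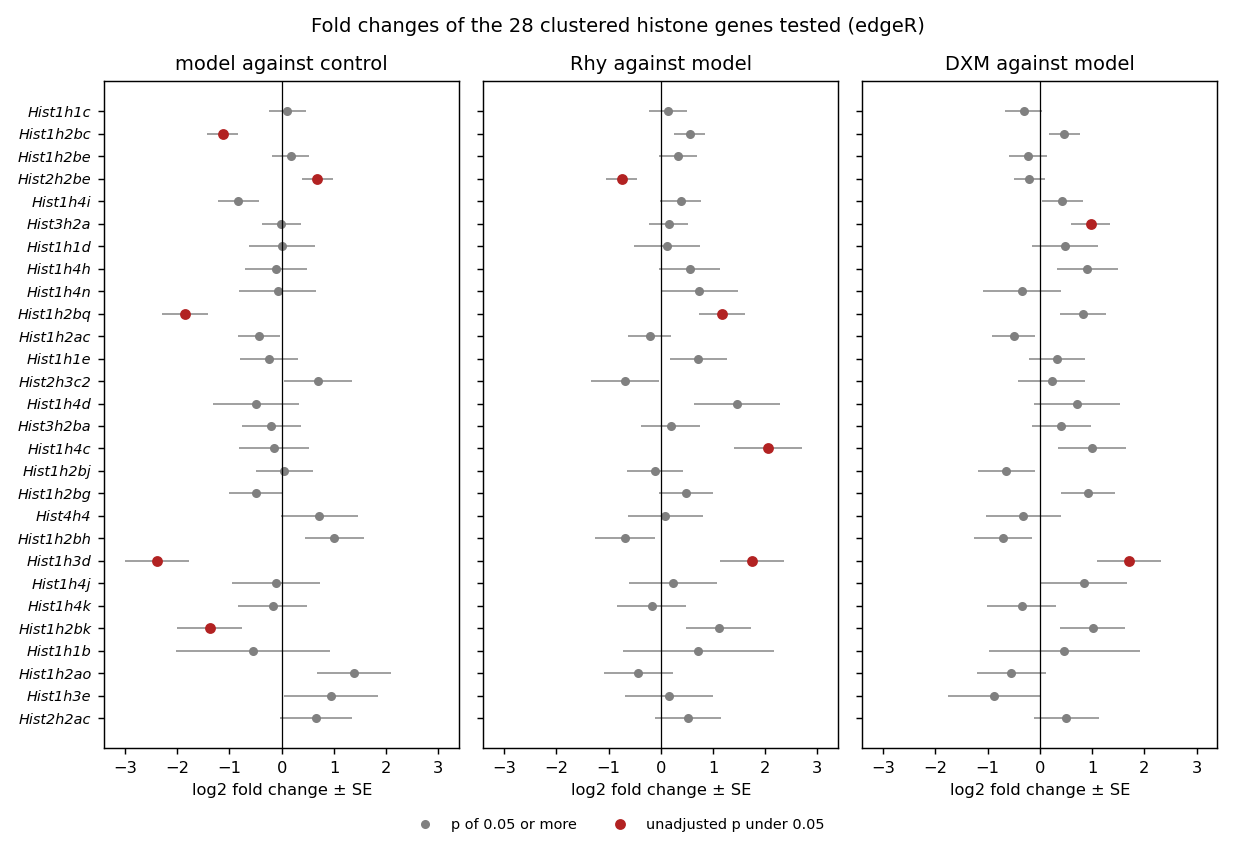
Log2 fold changes with SE (edgeR, 12 libraries in a single fit) of the 28 clustered histone genes tested, ordered by mean CPM, for the model against the control and for Rhy and DXM against the model. Red points have an unadjusted p under 0.05 (5, 4 and 2 genes), no gene passed after adjustment, and the model libraries enter all 3 panels.

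The ratio of the leading H2B gene to the leading H1 gene was chosen after the values were seen and is given without a test. Hist1h2bc had 67.3, 37.9 and 26.9 counts per 100 counts of Hist1h1c in the control libraries and 17.5, 17.8 and 19.9 in the model libraries. The ratio was 21.6, 22 and 37.5 with Rhy and 28.9, 42.1 and 27.7 with DXM. All 3 model libraries were below all 9 others in this ratio.

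Genes of S phase, when clustered histone mRNAs are made, stood beside these values as a list of 25 that also covers replication licensing and nucleotide supply. All 25 were higher in the model than in the control and 24 of them had an unadjusted p under 0.05, with 0 after adjustment. The median log2 fold change of the list was 1.37. Pcna, the sliding clamp of replication, had a log2 fold change of 1.08 ± 0.38, Mcm6, a subunit of the replicative helicase, 1.51 ± 0.51, Rrm2, a subunit of ribonucleotide reductase, 1.88 ± 0.52, and Ccne1, cyclin E, 0.97 ± 0.36. The summed level of the S phase list was 224, 316 and 514 CPM in the control, 895, 908 and 820 in the model, 453, 973 and 979 in the Rhy and 416, 903 and 783 in the DXM libraries. The summed level of the 67 clustered histone genes was 574, 603 and 420 CPM in the control, 529, 526 and 376 in the model, 679, 647 and 338 in the Rhy and 541, 332 and 462 in the DXM libraries. Model and control libraries did not overlap in the S phase sum and overlapped in the histone sum. In the control and Rhy groups the S phase sum rose as the mitochondrial share of the counts fell, while in the model it rose with that share. DXM 1, with the highest mitochondrial share, had the lowest S phase sum of its group. The part of that share in these sums was not tested.

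Without the leading Hist1h1c and Hist1h2bc, the other 65 histone genes summed to 99.5, 63.3 and 45.8 CPM in the control, 75.9, 68.9 and 50.2 in the model, 68.9, 83.9 and 83.9 in the Rhy and 73.7, 67.0 and 87.1 in the DXM libraries. Control 1 had the highest sum of these histone genes and the lowest S phase sum of all libraries, and it also held the most neutrophil marker counts, 688 CPM against 3.29 to 324 elsewhere. The part of that in its histone level was not tested.

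**Figure D5:**
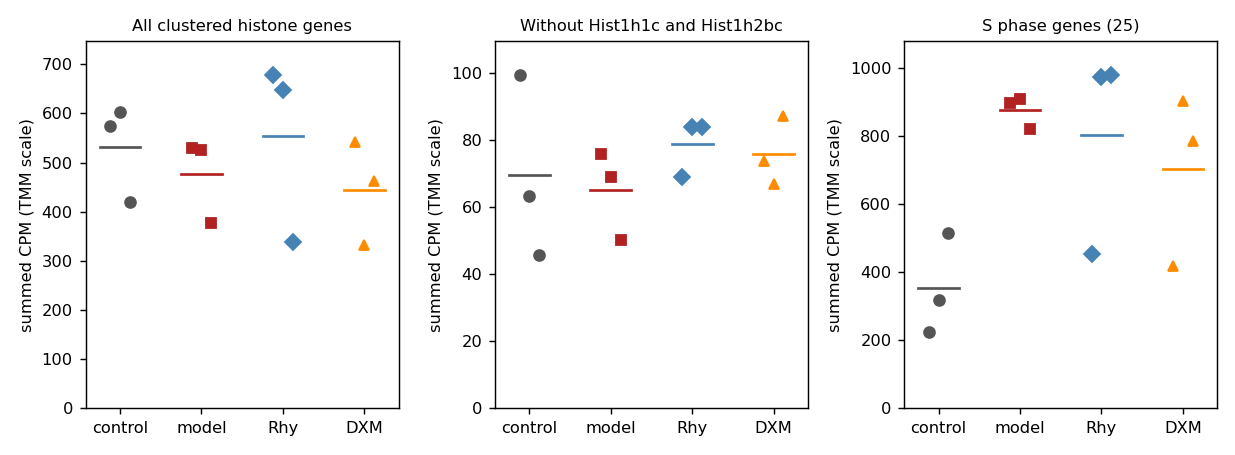
Summed CPM (TMM scale) per library of all 67 clustered histone genes, of the same genes without Hist1h1c and Hist1h2bc, and of 25 S phase genes, with a line at each group mean and each axis from 0. The S phase sum is 820 to 908 in the model against 224 to 514 in the control, while the histone sums of these groups overlap.

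Of the 16 mitosis genes, 16 were higher in the model than in the control and 3 had an unadjusted p under 0.05. Their median log2 fold change was 0.82. Top2a, a topoisomerase of dividing cells, had 1.05 ± 0.50 and Mki67, a marker of dividing cells, 0.24 ± 0.47. Against the model, all 16 were lower with Rhy and with DXM, with 0 under an unadjusted p of 0.05 in either and medians of -0.59 and -0.49.

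The genes that make and process histone mRNA were tested as 18 of a list of 19. In the model against the control, 13 were higher and 5 lower, and 2 were higher at an unadjusted p under 0.05. Slbp, which binds the stem-loop, was 1.79-fold higher in the model, with 18.5, 29.7 and 36.6 CPM in the control and 44.8, 49.9 and 57.4 in the model. Its log2 fold change was 0.84 ± 0.26 (edgeR, unadjusted p = 0.0081, adjusted p = 0.459), and the groups did not overlap. Npat, which activates transcription of the histone clusters, had -0.04 ± 0.27, and its partner at the histone locus body Casp8ap2 had 0.31 ± 0.31. Hinfp, the activator of H4 genes, had 0.12 ± 0.26, and the U7 snRNP genes Lsm11 and Zfp473 had 0.56 ± 0.34 and -0.23 ± 0.72, all on the log2 scale. Against the model, 8 of the 18 were higher and 10 lower with Rhy and 7 and 11 with DXM, and 1 was lower at an unadjusted p under 0.05 with Rhy and 0 with DXM.

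Replacement histones, many of which are made throughout the cell cycle, and histone chaperones, which hand histones to DNA, completed the pathway. All 11 replacement histone genes were higher in the model than in the control (median log2 fold change 0.22), and 2 had an unadjusted p under 0.05. These were H2afz with 0.90 ± 0.32 (unadjusted p = 0.0162) and H2afx, which marks DNA breaks when phosphorylated, with 0.95 ± 0.28 (unadjusted p = 0.00518). H3f3b, which encodes H3.3, and H1f0, the linker histone of resting cells, had 0.22 ± 0.20 and 0.19 ± 0.21. Per length, H3f3b with 219 FPKM was near Hist1h1c with 211, and H1f0 with 141 FPKM was between Hist1h1c and Hist1h2bc. Of the 21 chaperone genes, 19 were higher in the model and 8 of these had an unadjusted p under 0.05. They included Asf1b with 1.83 ± 0.55 and Chaf1b, a subunit of chromatin assembly factor 1, with 1.34 ± 0.38. Against the model, 3 of the 11 replacement histones and 7 of the 21 chaperones were higher with Rhy, and 3 and 6 with DXM, with 1 of each list lower at an unadjusted p under 0.05 with Rhy and 1 replacement histone, H2afx, with DXM.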

How the data were processed

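RNA-Seq was measured in 12 colon samples, 3 per group. The authors deposited raw counts, whole numbers of reads per gene, and FPKM values, which scale those counts to gene length and library size. The submitters' processing notes name HISAT2 2.0.5, featureCounts 1.5.0-p3, DESeq2 1.16.1 and mm10. Whether strand was used, and how multiply mapped reads were treated, is not given in the sources used here, so overlapping and near-identical genes are uncertain. The coordinates of all 67 members equal GENCODE M21 on GRCm38.

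The counts were tested with edgeR 4.0.16 (R 4.3.3), using filterByExpr (minimum count 10), which kept 16904 genes, TMM scaling and the two-sided quasi-likelihood test on group means of all 12 libraries, with Benjamini-Hochberg adjustment over all genes tested in each comparison. The SE of a log2 fold change was computed from it and the F statistic. CPM were compared between libraries and FPKM between genes. Exact permutation tests used log2(CPM + 1). The tests of edgeR and DESeq2 were tested on simulated counts with known fold changes. Alternatives were RLE scaling, no filter, only the groups compared, a replicate block, DESeq2 1.42.0, limma 3.58.1 on log2(FPKM + 1) and log2(FPKM + 0.1), model 1 and 2 summed, and each library left out in turn.

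The members, the gene lists (written from general knowledge) and the tests were chosen with earlier results of these data known. Values per library were given for the 10 members with the highest mean CPM, the highest of each family, Hist1h2bc and the 3 members with the smallest p in each comparison. Of the list genes, 18 were named by choice of role; Zcchc6 was not used here. Promoters came from RefSeq (GRCm38.p6), where 62 of the 67 members matched a promoter, Hist1h2bc not among them. The DXM group, not named in the study's RNA-Seq methods, was taken from its labels.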

Additional observations from a re-analysis of the deposited data

How the results depend on the processing

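With 3 libraries per group and most members under 1 CPM, these data can show only large differences, and no member passed after adjustment in edgeR or limma under any alternative. For the model against the control, DESeq2 called 1 member after adjustment, Hist1h2bc (log2 fold change -1.19), and the count at an unadjusted p under 0.05 was 3, in place of 5, with only the groups compared and with model 1 and 2 summed. For Rhy against the model that count was 8 of 61 members in place of 4 of 28 without a filter (13.1% in place of 14.3%). For DXM against the model it was 5 of 61 in place of 2 of 28 without a filter (8.2% in place of 7.14%) and 4 with only the groups compared, and the median log2 fold change was 0.19 in place of 0.42 with limma on log2(FPKM + 1). Without each library in turn, the counts at an unadjusted p under 0.05 ranged from 3 to 6, 2 to 5 and 0 to 2 (model against control, Rhy and DXM against model), the counts after adjustment stayed at 0, and the medians ranged from -0.43 to 0.40, 0.19 to 0.61 and 0.19 to 0.55. The causes were not tested beyond the change in genes or samples that each setting makes.

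The replicate block gave 4, 5 and 3 members at an unadjusted p under 0.05 in the same order, against 5, 4 and 2 without it, and 0 after adjustment. Same-numbered libraries correlated at -0.31 to 0.363 in their deviations, over 0.1 in 6 of 18 pairs (with all 3 between control and model among them, at 0.104 to 0.363). The best match had the same number in 9 of 36 cases, so no steady match by number was seen over the 4 groups. Whether same-numbered libraries share more than a number is not given in the sources used here.

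Of 544 alternative values for the 13 named members, 510 kept their direction and 34 reversed. For the model against the control, these were Hist3h2a (0.01 without a filter, 0.02 with the replicate block), Hist1h1d (-0.04 with RLE and with DESeq2, -0.01 with the replicate block, -0.02 and -0.11 with limma at a pseudocount of 1 and 0.1, -0.26 with model 1 and 2 summed), Hist1h4h (0.09 with the replicate block, 0.09 and 0.14 with limma), Hist1h4n (0.11 and 0.17 with limma) and Hist1h4c (0.01 with limma at 0.1 and with model 1 and 2 summed). Without single libraries, the values ranged from -0.13 to 0.40 for Hist1h2be, -0.31 to 0.41 for Hist3h2a, -0.30 to 0.66 for Hist1h1d, -0.46 to 0.88 for Hist1h4h, -0.48 to 0.95 for Hist1h4n and -0.67 to 0.77 for Hist1h4c in this comparison, from -0.11 to 0.47 for Hist1h1c and -0.29 to 0.43 for Hist1h1d in Rhy against the model, and from -0.65 to 0.05 for Hist1h4n in DXM against the model.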
